A study of Rattus norvegicus with 18 samples.

Results

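The effect of MYC on all measured genes was examined in 6 of the 18 RNA-seq libraries of this series. These were the 3 of myc-/- cells and the 3 of myc-/- + MYC siCtrl cells, chosen by their labels with earlier results of these data known. All are HO15.19 cells, a line derived from Rat1 rat fibroblasts in which both alleles of the endogenous myc gene were disrupted. The myc-/- + MYC cells are the same line after transfer of human MYC with the retroviral vector pBabe. They had been transfected with a control siRNA (siCtrl, 40 nM, harvested after 48 h). The myc-/- cells carried neither MYC nor, as labelled, any siRNA. The paper describes the myc-/- cells of its RNA-seq as expressing vector. MYC and transfection therefore cannot be told apart in this comparison. These libraries were scaled together with 6 others from myc-/- + MYC cells that had received an siRNA to the receptor AHR, either siAHR-2 or siAHR-5, as a set of 12. The other 6 libraries, of myc-/- siCtrl and untransfected myc-/- + MYC cells, form a set of 6 on another scale, the companion set. Poly-A RNA was sequenced and the deposited values are log2 expression of 13188 genes, so that a difference of 1 on this scale is a doubling. The values hold no read counts, the depth of the libraries is unknown, and each gene with little signal has a lowest value of its own, near which a fold change may be compressed. Nothing in the labels says that replicates came from separate cultures, so the p-values measure only the spread between these libraries, which may be technical.

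MYC is a transcription factor that pairs with MAX and binds E-box sequences in the promoters of many genes. It is best known for driving cell growth through ribosome production, nucleotide synthesis and glycolysis, for promoting entry into the cell cycle, and for lowering a smaller group of genes that includes cell cycle inhibitors. In fibroblasts, matrix and contractile genes are among those known to be low in cells that grow under the influence of MYC, and the Rat1 cells that lack myc are known to grow slowly.

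Replicate 2 of the myc-/- cells stood apart from the other libraries of its group, and this is described before the results because it enters every fold change. The leading principal component of the 6 libraries carried 96.6% of the variance and separated cells with and without MYC, and the next, with 2.16%, placed myc-/- replicate 2 at −12.8 and replicates 1 and 3 at 6.57 and 6.11. Among the 10718 genes whose mean log2 value was 5 or more, 137 lay at least 1.5-fold from the mean of the other myc-/- libraries in replicate 2, 135 below it and 2 above, against 5 each in replicates 1 and 3. The difference followed the span of the gene. With the genes in 5 bins of span, replicate 2 lay a median of 0.11 above replicates 1 and 3 in the bin of shortest genes (a median of 4.37 kb in the RefSeq table of the GRCr8 assembly) and at −0.14 in the bin of longest genes (120 kb), while replicates 1 and 3 differed by at most 0.01 in any bin. Of the 135 genes that were low in replicate 2, 133 had a span, with a median of 113 kb against 23.3 kb over all genes.

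**Figure D1:**
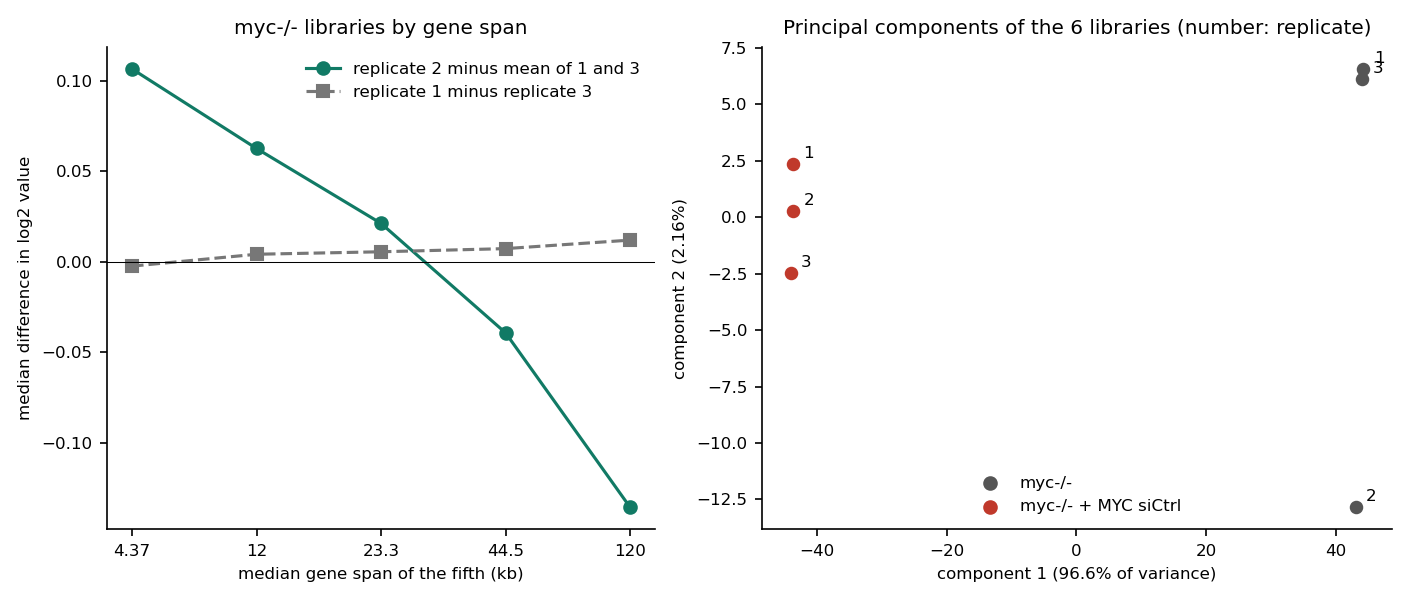
Left, median difference in log2 value between myc-/- libraries for 5 bins of genes ordered by span (x axis, median span of the bin in kb), for replicate 2 against the mean of replicates 1 and 3 (green) and for replicate 1 against replicate 3 (grey). Right, scores of the 6 libraries on the first and second principal components, numbered by replicate. Replicate 2 falls from 0.11 in the shortest genes to −0.14 in the longest, and lies at −12.8 on the second component.

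The actin-binding gene Lpp and the giant cadherin Fat4 were among the 5 genes lowest in replicate 2. Lpp had values of 12.97, 11.56 and 12.86 in the myc-/- libraries and 11.85, 11.86 and 11.56 in the MYC libraries. Replicate 2 of Lpp thus lay at the level of the MYC libraries while the other myc-/- libraries were above it, and the log2FC (MYC minus myc-/-) of −0.71 did not pass (limma adjusted p = 0.159). Without replicate 2 it was −1.16 and passed (limma adjusted p = 4.61e-04). Fat4 behaved alike, with 14.69, 13.497 and 14.65 against 13.62, 13.51 and 13.37, a log2FC of −0.78 with all libraries (limma adjusted p = 0.0845) and −1.17 without replicate 2 (limma adjusted p = 1.25e-04). Families of short genes moved the other way: the median of replicate 2 above its group was 0.22 for cytosolic ribosomal proteins, 0.20 for subunits of oxidative phosphorylation and 0.18 for mitochondrial ribosomal proteins. Over all genes with a mean of 5 or more, the median SD between replicates was 0.0746 in myc-/- cells and 0.0508 in myc-/- + MYC siCtrl cells.

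With all 6 libraries, 3361 genes passed the cutoffs of a fold of at least 1.5 and an adjusted p of at most 0.01 (limma, Benjamini-Hochberg over all genes), which is 25.5% of the genes tested. Of these, 1425 were higher with MYC (10.8%) and 1936 were lower (14.7%). The balance depended on the scaling, with 1796 higher and 1660 lower after quantile normalization and 1603 and 1791 after median centring. Large changes were more often falls: 301 genes fell at least 4-fold and 97 rose at least 4-fold, and beyond 8-fold there were 126 falls and 25 rises. The median log2FC was 0.86 among the genes that rose and −0.996 among those that fell, against 0.00 over all genes. For 70.5% of all genes the libraries of the groups did not overlap, so a lack of overlap sets no gene apart here. Leaving out myc-/- replicate 2 gave 1436 higher and 1977 lower, and 3231 genes passed in the same direction with and without it. In these bulk samples, fewer cells of a type and less RNA per cell cannot be told apart.

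The targeted gene itself does not check the labels. Rat Myc had values of 10.90, 10.82 and 10.94 in myc-/- cells and 8.16, 8.19 and 8.27 in myc-/- + MYC siCtrl cells. It was lower in every MYC library, with a log2FC of −2.68 (limma adjusted p = 6.02e-07). Which part of the gene these reads came from is not given in the sources used here, and the human transgene was not analysed here. The MYC antagonists Mxd1 (log2FC 0.88) and Mxi1 (0.76), which compete for MAX, rose, and so did the MYC partner Zbtb17 (0.60), whereas Max had a log2FC of 0.32 and did not pass.

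The cells carried fibroblast markers with and without MYC. The intermediate filament vimentin (Vim) had a mean of 19.63 in myc-/- and 19.45 in MYC cells, and the epithelial gene Epcam lay near its lowest values, at 2.36 and 2.37. Of 14 measured fibroblast markers 0 rose and 9 fell (64.3%), against 10.8% higher and 14.7% lower among all genes. Those that fell included Col1a1, Pdgfrb (−3.08), the surface glycoprotein Thy1 (−2.20) and fibronectin, Fn1 (−1.80). Of 10 epithelial markers, Krt8 rose (1.17), a share of 10% that is near that of all genes, and the others did not pass. Among skeletal muscle markers, 4 of 6 fell (66.7%), led by embryonic myosin Myh3 (−4.10). Of 9 neural and glial markers Dcx fell (−0.94) and of 7 endothelial markers Vwf fell (−3.06). These shares of 11.1% and 14.3% are near that of all genes. Of 7 haematopoietic markers Laptm5 rose (0.65) and Cd3e and Cd14 fell (−1.13 and −0.74), shares of 14.3% and 28.6%.

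Many genes that build ribosomes were higher with MYC. Of 80 measured factors of ribosome assembly in the nucleolus, 28 rose (35% against 10.8% of all genes) and Nop14 fell, with a median log2FC of 0.40 for the list. Ddx21, an RNA helicase of ribosomal RNA transcription and processing, had values of 14.72, 14.52 and 14.66 in myc-/- cells and 16.51, 16.501 and 16.51 in MYC cells. Every MYC library lay above every myc-/- library, a 3.66-fold rise (log2FC 1.87 ± 0.0542, SE, n = 3 a group, limma adjusted p = 1.76e-06). Wdr43, a subunit of the complex that processes the small subunit, rose from 13.98, 13.996 and 14.03 to 15.37, 15.34 and 15.39 (log2FC 1.36). Other members that rose were the nucleolar phosphoprotein Npm1 (1.03), the pseudouridine synthase Dkc1 (1.04), its partner Gar1 (1.24) and Nolc1 (1.05), which carries their particles into the nucleolus. The small subunit factor Nop14 went the other way, from 15.01, 15.03 and 14.99 to 14.02, 14.06 and 14.12 (log2FC −0.94).

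The E-box that MYC and MAX bind (the letters CACGTG, which read the same on both strands) was searched in the RefSeq promoter windows of the GRCr8 assembly, from 250 bases before to 50 after the start. It was in 22 of the 73 nucleolar promoters available (30.1%), compared with 9.05% of the promoters of all genes tested and 6.65% of all 27457 windows. Genes that rose and genes that fell held it in near-equal shares (9.53% and 9.23%). Within the nucleolar list it was in 5 of the 25 risen genes with a window, a smaller share than in the whole list. The 3 of these with the largest rise are shown as examples of the motif among the risen genes, with the E-box in capitals and 5′ to 3′ on the strand of the gene. Mybbp1a, a nucleolar protein that binds MYB (log2FC 1.13), has it at −156 and −1 relative to the start, Lyar, a zinc finger protein of ribosomal RNA processing (1.12), at −90, and Dkc1 at −184. The windows are chr10:57555208-57555507 on the plus strand, chr14:76802716-76803015 on the minus strand and chrX:157751401-157751700 on the plus strand. In this table the gene Zbtb49 starts inside the window of Lyar, on the other strand.
Mybbp1a: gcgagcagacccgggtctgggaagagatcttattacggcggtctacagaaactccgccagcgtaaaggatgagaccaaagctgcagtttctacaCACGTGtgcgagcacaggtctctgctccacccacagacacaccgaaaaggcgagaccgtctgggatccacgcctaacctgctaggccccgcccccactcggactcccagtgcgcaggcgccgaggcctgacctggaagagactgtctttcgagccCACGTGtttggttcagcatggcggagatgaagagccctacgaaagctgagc
Lyar: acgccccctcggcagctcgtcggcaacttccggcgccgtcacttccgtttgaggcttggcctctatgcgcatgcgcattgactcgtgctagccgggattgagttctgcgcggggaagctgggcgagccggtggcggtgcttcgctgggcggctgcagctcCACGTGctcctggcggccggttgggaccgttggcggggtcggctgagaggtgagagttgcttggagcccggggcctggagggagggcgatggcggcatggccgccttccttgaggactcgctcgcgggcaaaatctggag
Dkc1: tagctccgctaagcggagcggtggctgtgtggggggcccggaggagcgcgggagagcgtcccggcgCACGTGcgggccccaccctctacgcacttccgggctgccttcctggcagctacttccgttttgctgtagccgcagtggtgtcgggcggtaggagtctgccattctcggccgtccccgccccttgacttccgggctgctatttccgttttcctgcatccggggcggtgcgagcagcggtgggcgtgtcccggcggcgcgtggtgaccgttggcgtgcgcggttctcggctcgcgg

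The polymerases that transcribe ribosomal and transfer RNA followed the same direction. Among 33 measured subunits and factors of RNA polymerases I and III, 13 rose and 1 fell (39.4% and 3.03%, median log2FC 0.48). The fall, of Cd3eap (−0.61), was lost without myc-/- replicate 2 or MYC siCtrl replicate 1 and after quantile normalization or median centring. Taf1d, of the factor that selects ribosomal DNA promoters, rose from 11.997, 12.20 and 11.97 to 13.40, 13.39 and 13.51 (log2FC 1.38). The polymerase III subunit Polr3g rose by 1.16 and its paralog Polr3gl by 0.68. Maf1, which represses polymerase III, was also higher (0.71).

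Changes of the cytosolic ribosomal proteins were small and mostly upward. Of 82 measured, 21 rose (25.6% against 10.8% of all genes) and 0 fell at the cutoffs, and the 61 others did not pass. The list had a median log2FC of 0.40 and a range from −0.21 to 0.97. Rps26, a protein of the small subunit near the messenger RNA exit, had values of 15.42, 15.63 and 15.41 against 16.47, 16.43 and 16.46 (log2FC 0.97 ± 0.0642, SE, 1.95-fold, limma adjusted p = 4.39e-05). Rplp0, of the stalk of the large subunit, had a log2FC of 0.81, and Rpl3, which shapes its catalytic centre, a value of 0.79. The count depended on the scaling and on replicate 2, with 40 higher after quantile normalization and 27 higher without that replicate. At an adjusted p under 0.05 with no fold cutoff, 55 rose and 2 fell. Members can share reads with their many pseudogenes, which makes single members uncertain. Mitochondrial ribosomal proteins had 8 of 67 higher and 0 lower, close to the 10.8% of all genes, led by Mrps27 (0.92) and Mrps18b (0.83).

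The rest of the translation machinery was mixed. Of 35 aminoacyl-tRNA synthetases 7 rose and 2 fell (20.0% and 5.71%). Those that rose most charge mitochondrial tRNA (Lars2 1.04, Wars2 0.90 and Hars2 0.88). Those that fell were Cars (−0.76) and Nars2 (−0.66), of which Nars2 also charges mitochondrial tRNA. Of 50 initiation and elongation factors 5 rose and 4 fell (10% and 8%), no more than among all genes, and after quantile normalization 11 rose and 0 fell. Eif4ebp2, which holds back cap-dependent initiation, had the largest rise of the list, from 13.15, 13.01 and 13.13 to 14.70, 14.67 and 14.56 (log2FC 1.55). The chaperonin ring subunits Cct2, Cct5, Cct6a and Cct8 rose by between 0.61 and 0.90 among 28 chaperones. Of these chaperones 5 rose (17.9% against 10.8% of all genes) and 0 fell. After quantile normalization 10 rose. Proteasome subunits changed little, with 2 of 33 higher and 1 lower (6.06% and 3.03%). Their median log2FC of −0.07 became 0.07 after quantile normalization.

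**Figure D2:**
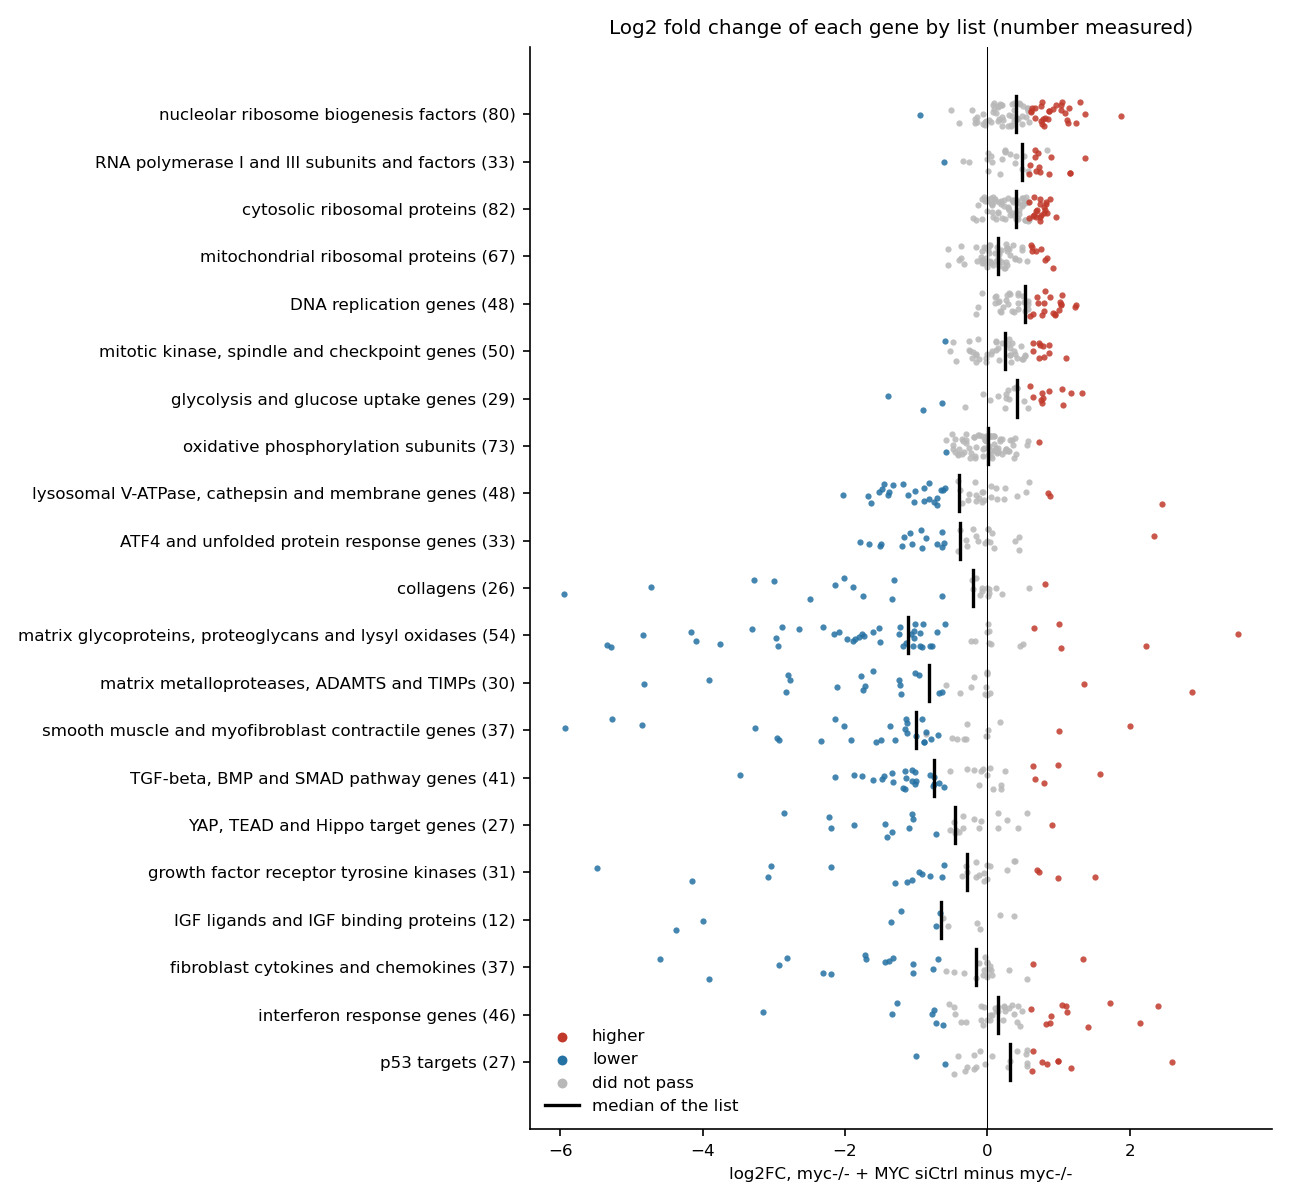
Log2FC (x axis, myc-/- + MYC siCtrl minus myc-/-, 3 libraries each) of each measured gene of 21 lists, with the number measured in brackets and a black bar at the median of the list. Red genes were higher and blue genes lower past the cutoffs, and grey genes did not pass. The nucleolar list lies around 0.40 and the matrix glycoprotein list around −1.11, with its lowest gene, Thbs2, at −5.35.

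Nucleotide synthesis enzymes that MYC is known to raise were among the genes that rose. Cad, the trifunctional enzyme that begins pyrimidine synthesis, had values of 15.46, 15.29 and 15.42 in myc-/- cells and 16.70, 16.71 and 16.73 in MYC cells. The groups were well apart, a 2.5-fold rise (log2FC 1.32, limma adjusted p = 4.66e-06). Dhodh, of the same pathway, rose by 1.08 and Rrm2, the regulated subunit of ribonucleotide reductase, by 1.17. In all, 4 of 16 pyrimidine and deoxynucleotide genes rose (25% against 10.8% of all genes), 0 fell and 12 did not pass. For purines, 5 of 15 rose (33.3%), among them Prps2 (0.85), Adsl (0.84), Pfas (0.77) and Gart (0.73). Impdh1, which commits the pathway to guanine nucleotides, fell (−0.77) and so did the salvage enzyme Hprt1 (−0.60). The share of purine genes that fell, 13.3%, is near the 14.7% of all genes. The call of Hprt1 was lost under quantile normalization or median centring and without myc-/- replicate 2 or MYC siCtrl replicates 1 or 2. Of 17 serine and folate enzymes 5 rose and 2 fell (29.4% and 11.8%, the latter near the 14.7% of all genes). The folate enzyme Mthfd1 rose from 14.55, 14.54 and 14.56 to 15.83, 15.88 and 15.87 (log2FC 1.31), and Phgdh, the entry enzyme of serine synthesis, fell (−0.70). In polyamine synthesis Odc1 (0.86), Sms (0.75) and Amd1 (0.75) rose and Azin2 fell, out of 13 genes (23.1% and 7.69%).

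Sugar metabolism changed gene by gene. Of 29 glycolysis and glucose uptake genes 11 rose and 3 fell (37.9% and 10.3%), with a median of 0.41. Pfkp, a phosphofructokinase, rose from 13.40, 13.41 and 13.46 to 14.73, 14.76 and 14.77 (log2FC 1.32), and the glucose transporter Slc2a1 (1.06), the enolase Eno1 (0.78) and lactate dehydrogenase Ldha (0.77) rose as well. The other lactate dehydrogenase, Ldhb, fell from 12.35, 12.61 and 12.35 to 10.89, 11.13 and 11.10 (log2FC −1.40). Of 26 glutamine and amino acid transport genes 4 rose and 5 fell (15.4% and 19.2%), near the shares of all genes, and 17 did not pass. The glutamate transporter Slc1a3 (2.13) and the glutamine transporters Slc38a1 (1.56) and Slc1a5 (1.42) rose, while the leucine transporter Slc7a5 (−1.38), the cystine transporter Slc7a11 (−1.12) and glutamine synthetase, Glul (−0.71), fell. Oxidative phosphorylation did not share in these changes, with 1 of 73 subunits higher, 1 lower and a median of 0.01. Without myc-/- replicate 2 the counts were 3 and 0. Cholesterol synthesis also had 1 gene higher and 1 lower of 25 (3 and 1 after quantile normalization). Tm7sf2, a sterol reductase, was the gene that fell (−1.79).

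Many lysosomal genes were lower with MYC. Of 48 measured, 23 fell (47.9% against 14.7% of all genes) and 3 rose, with a median of −0.40. The acid glucosidase Gaa had values of 15.32, 15.27 and 15.31 against 13.61, 13.63 and 13.64. The MYC libraries lay close together and far below every myc-/- library (log2FC −1.67 ± 0.0240, SE, 3.19-fold, limma adjusted p = 1.78e-07). The proteases Ctsf (−2.03), Ctsd (−1.48) and Ctsb (−1.45), the lipase Lipa (−1.63), the membrane proteins Lamp1 (−1.18) and Lamp2 (−0.88), the autophagy receptor Sqstm1 (−1.53) and the transcription factors of lysosomal genes Tfe3 (−1.12) and Tfeb (−0.82) fell. Ctsc went the other way, from 7.496, 7.59 and 7.54 to 9.97, 9.92 and 10.08 (log2FC 2.45). Of 27 NRF2 and glutathione genes 2 rose and 7 fell (7.41% and 25.9%), and after quantile normalization 4 rose and 6 fell. The quinone reductase Nqo1, which is also a target of the aryl hydrocarbon receptor, rose from 12.22, 12.30 and 12.18 to 14.01, 14.01 and 14.07 (log2FC 1.80) and the haem oxygenase Hmox1 fell (−1.29).

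Many DNA replication genes rose. Of 48 measured 19 rose (39.6% against 10.8% of all genes) and 0 fell, and the median log2FC was 0.52. They included the helicase subunits Mcm7 (1.05) and Mcm5 (0.96), the loaders Cdt1 (1.002) and Cdc6 (0.88), the origin subunit Orc1 (1.03) and Cdc45 (0.95). Rpa3, of the single-strand binding complex, had values of 12.15, 12.31 and 12.13 in myc-/- cells and 13.49, 13.35 and 13.45 in MYC cells (log2FC 1.23 ± 0.0631, SE, limma adjusted p = 1.48e-05). Pole, the catalytic subunit of the leading strand polymerase, rose from 14.14, 13.73 and 14.13 to 15.27, 15.26 and 15.18 (log2FC 1.24), with myc-/- replicate 2 the lowest library, and without it had a log2FC of 1.10, against 1.29 for Rpa3. Of 50 mitotic genes 10 rose (20.0%) and 1 fell (0 fell without myc-/- replicate 2). Ect2, which starts cytokinesis, rose from 14.35, 14.27 and 14.38 to 15.49, 15.39 and 15.41 (log2FC 1.10), and the kinase Plk4 (0.79) and the topoisomerase Top2a (0.78) rose too. Of 23 G1 genes 5 rose and 4 fell (21.7% and 17.4%, against 10.8% and 14.7% of all genes), and 14 did not pass. The kinases Cdk2 (1.11) and Cdk4 (0.71) and the repressor E2f7 (1.07) rose, while the cyclins Ccnd2 (−1.35), Ccne1 (−1.002) and Ccnd1 (−0.89) fell. The cell cycle inhibitor Cdkn1a had 11.69, 11.83 and 11.73 against 11.07, 11.20 and 11.21, a log2FC of −0.59 at the edge of the fold cutoff, which it missed without myc-/- replicate 2, without MYC siCtrl replicate 1, and after quantile normalization or median centring.

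The promoters of many mitotic genes carried motifs known for genes of the late cell cycle. The cell cycle homology region (TTTGAA, both strands) was in 31 of 43 mitotic promoters (72.1%), against 12.2% of all genes tested, and the CCAAT box (CCAAT, both strands) in 32 (74.4%), against 37.9%. For DNA replication genes these shares were 11.9% and 52.4%. Among all genes that rose the shares were 11.8% and 39.9%, near those of all genes.

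Matrix genes were among the deepest falls of this comparison. Col1a1, a chain of type I collagen, had values of 21.07, 20.93 and 21.01 in myc-/- cells and 15.05, 15.05 and 15.08 in MYC cells. The MYC libraries lay close together and the difference was 61.7-fold (log2FC −5.95 ± 0.0455, SE, limma adjusted p = 4.30e-08). Of 26 collagen genes 12 fell and 1 rose (46.2% and 3.85%), with a list median of −0.21, and 13 did not pass. Col14a1 (−4.72), Col6a2 (−3.28), Col18a1 (−3.003) and the basement membrane chain Col4a1 (−2.13) fell, whereas the interstitial collagen Col3a1 had a mean of 14.88 in myc-/- cells and 14.80 in MYC cells.

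Of 54 matrix glycoproteins, proteoglycans and lysyl oxidases 40 fell (74.1% against 14.7%) and 5 rose, with a median of −1.11. Thrombospondin 2, Thbs2, fell from 13.48, 13.28 and 13.42 to 8.002, 8.04 and 8.09 (log2FC −5.35). The small proteoglycan biglycan, Bgn, fell from 16.42, 16.29 and 16.39 to 11.12, 11.002 and 11.11 (log2FC −5.29), and its relative Fmod fell by 4.83. Elastic fibre genes were split, since Fbln5 (−4.10), Mfap5 (−3.76) and elastin, Eln (−2.64), fell, while Fbn2, the fibrillin of fetal tissue, rose from 8.86, 8.82 and 8.80 to 12.36, 12.37 and 12.33 (log2FC 3.52) and Ltbp4 by 2.23. The matricellular genes Thbs1 (−3.30), Tnc (−2.89) and Sparc (−1.89) fell.

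Many of the enzymes that cut the matrix and of their inhibitors fell too. Of 30 metalloproteases, ADAMTS proteases and TIMPs 17 fell and 2 rose (56.7% and 6.67%, median −0.82). The gelatinase Mmp2 had values of 15.24, 15.24 and 15.24 in myc-/- cells and 10.37, 10.45 and 10.41 in MYC cells (log2FC −4.83, 28.4-fold). Mmp9 (−3.91), Mmp3 (−2.77), the procollagen protease Adamts2 (−2.81) and the inhibitors Timp3 (−1.78) and Timp1 (−1.21) fell as well. The membrane protease Mmp15 rose from 8.07, 7.99 and 7.89 to 10.90, 10.86 and 10.83 (log2FC 2.88). Among adhesion receptors 9 of 37 fell and 1 rose (24.3% and 2.70%). The mesenchymal cadherin Cdh11 fell from 12.91, 12.76 and 12.91 to 7.78, 7.78 and 7.70 (log2FC −5.11), and Cdh8 (−4.94), the collagen receptor subunit Itga11 (−2.99) and Itgb1 (−1.01) fell too.

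Many contractile genes of smooth muscle and myofibroblasts fell. Of 37 measured 25 fell (67.6%) and 2 rose, with a median log2FC of −1.004. Transgelin, Tagln, had values of 16.95, 17.17 and 16.96 in myc-/- cells and 11.06, 11.15 and 11.08 in MYC cells (log2FC −5.93 ± 0.0666, SE, 60.9-fold, limma adjusted p = 9.94e-08). Smooth muscle actin, Acta2, fell from 16.53, 16.65 and 16.54 to 11.27, 11.37 and 11.26 (log2FC −5.27). The ranges of these genes were far apart, and Actg2 (−4.85), the myosin kinase Mylk (−3.26), calponin, Cnn1 (−2.95), and the myosin light chain Myl9 (−2.93) fell alongside them. The actin-bundling Synpo2 (1.999) and the LIM protein Csrp2 (1.01) rose.

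The CArG box, to which serum response factor binds in contractile genes and which can contain a CCAAT box, was searched on both strands of the same promoter windows. It was in 5 of 30 contractile promoters (16.7%), against 1.25% of all genes tested. Of the 20 fallen members with a window 2 held it, a smaller share than in the whole list. They were Fhl1 (log2FC −2.14) and Fhl2 (−1.13), both LIM domain cofactors of muscle genes. These windows are shown with the CArG box in capitals, as examples of the motif among the fallen genes. They lie at chrX:139638246-139638545 on the plus strand, with the box at −102 relative to the start, and at chr9:52954491-52954790 on the minus strand, with the box at −95. The table lists 2 starts for each of these genes, and the box is in the window of the first.
Fhl1: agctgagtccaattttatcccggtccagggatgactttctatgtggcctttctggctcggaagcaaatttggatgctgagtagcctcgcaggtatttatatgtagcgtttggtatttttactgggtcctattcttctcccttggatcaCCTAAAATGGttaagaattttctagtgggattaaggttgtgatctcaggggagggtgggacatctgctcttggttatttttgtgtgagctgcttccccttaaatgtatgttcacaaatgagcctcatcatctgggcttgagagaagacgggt
Fhl2: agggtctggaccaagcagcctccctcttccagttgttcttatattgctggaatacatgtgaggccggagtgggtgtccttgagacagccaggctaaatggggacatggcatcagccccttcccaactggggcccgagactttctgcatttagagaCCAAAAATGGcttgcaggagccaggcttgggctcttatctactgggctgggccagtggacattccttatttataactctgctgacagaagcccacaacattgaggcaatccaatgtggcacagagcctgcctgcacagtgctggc

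Many signalling genes known to sustain the myofibroblast state fell as well. Of 41 genes of the TGF-beta and BMP pathways 24 fell and 5 rose (58.5% and 12.2%, median −0.76). All 3 ligands Tgfb1 (−2.13), Tgfb2 (−1.87) and Tgfb3 (−1.16) fell, with the receptors Tgfbr2 (−1.34) and Tgfbr3 (−1.45) and the inhibitor Smad7 (−1.18). On the BMP side Bmpr1b (1.59), Bmp4 (0.99) and Bmp5 (0.79) rose, while Bmpr1a (−1.06), Bmpr2 (−1.06) and the target Id1 (−1.15) fell. Of 27 YAP and TEAD genes 11 fell and 1 rose (40.7% and 3.70%), and after quantile normalization 10 fell and 3 rose. The YAP targets Ctgf (−2.22), Axl (−2.20) and Ankrd1 (−1.04) fell, with the factors Tead1 (−1.10) and Tead3 (−1.41), while Tead2 rose (0.90).

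Growth factor receptors fell more often than they rose. Of 31 receptor tyrosine kinases 13 fell (41.9% against 14.7% of all genes) and 4 rose (12.9%, near the 10.8% of all genes). The stem cell factor receptor Kit had values of 14.79, 14.51 and 14.81 against 9.38, 9.28 and 9.02 (log2FC −5.48 ± 0.123, SE, 44.6-fold, limma adjusted p = 7.22e-07). The PDGF receptors Pdgfrb (−3.08) and Pdgfra (−0.61), Met (−1.30) and Egfr (−1.13) also fell, while Fgfr1 rose from 12.53, 12.49 and 12.46 to 14.02, 14.04 and 13.96 (log2FC 1.52). Of 12 genes of the insulin-like growth factors 0 rose and 6 fell (50% against 14.7% of all genes), led by Igf2 (−4.37) and Igfbp7 (−3.99). Among 42 guidance molecules 13 fell (31.0% against 14.7% of all genes), led by the ephrin receptor Epha3 (−4.20). Another 7 rose (16.7% against 10.8%), led by Sema6b (2.52) and Plxna2 (2.07). Of 16 Notch genes 4 rose (25%), among them the targets Hey1 (1.36) and Hey2 (0.83) and the ligand Dll1 (0.91). The ligand Jag1 (−0.70) and the modifier Lfng (−1.18) fell (12.5%, near the share of all genes).

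Many secreted signals of inflammation fell. Of 37 cytokines and chemokines 15 fell and 2 rose (40.5% and 5.41%), with a median of −0.15. Cxcl12, which retains haematopoietic cells in the stroma, had values of 15.05, 15.07 and 15.05 in myc-/- cells and 10.42, 10.49 and 10.48 in MYC cells (log2FC −4.59, 24.1-fold). Ccl20 (−3.90), Ccl2 (−2.92), Il6 (−2.82) and the fibroblast growth factor Fgf7 (−2.31) fell too. Cxcl10, an interferon-induced chemokine, rose from 11.41, 11.31 and 11.16 to 12.65, 12.58 and 12.68 (log2FC 1.34). Of 46 interferon response genes 11 rose (23.9% against 10.8% of all genes) and 7 fell (15.2%, near the 14.7% of all genes). The RNA sensor Ddx58 (1.72), Cmpk2 (2.14) and Oasl (1.42) rose, whereas Ifit2 fell from 11.15, 11.06 and 11.01 to 7.73, 7.90 and 8.14 (log2FC −3.15) and the factors Stat2 (−1.27) and Irf7 (−0.75) fell. The peptide transporter Tap1 (0.71) and the immunoproteasome subunit Psmb8 (1.27) rose among 30 genes of antigen processing, of which 4 rose and 3 fell (13.3% and 10.0%, near the shares of all genes).

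Of 28 immediate early genes 9 were higher (32.1% against 10.8% of all genes). Another 5 were lower (17.9%, near the 14.7% of all genes), and 3 were lower after quantile normalization. Egr1, a factor induced by serum, rose from 13.12, 12.84 and 13.17 to 15.31, 15.43 and 15.14 (log2FC 2.25), and the MAP kinase phosphatase Dusp6 rose by 1.28, while Nr4a2 (−2.16) and Klf4 (−1.51) fell. Of 27 p53 targets 8 rose (29.6%), among them the death receptor Tnfrsf10b (2.59), the p53 ligase Mdm2 (0.99) and Zmat3 (0.99), and 2 fell, Gdf15 (−1.0) and Cdkn1a. Many genes of the stress of the endoplasmic reticulum fell: of 33 ATF4 and unfolded protein response genes 15 were lower and 1 was higher (45.5% and 3.03%, median −0.38). Chac1 fell from 13.61, 13.67 and 13.54 to 11.79, 11.77 and 11.89 (log2FC −1.80), and the chaperone Hspa5 (−0.86), the factor Xbp1 (−0.93) and the disulfide isomerase Pdia4 (−1.17) fell. Ddit4, an inhibitor of mTORC1, was the gene that rose, from 11.82, 11.66 and 11.76 to 14.01, 14.10 and 14.15 (log2FC 2.34). Of 24 hypoxia genes 7 rose and 5 fell (29.2% and 20.8%), and 3 fell after quantile normalization. Ndrg1, which was the largest riser of that list, had 11.67, 11.71 and 11.71 against 15.06, 15.06 and 14.99 (log2FC 3.34, 10.1-fold), and Adm, a vasodilator peptide, fell (−1.66).

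**Figure D3:**
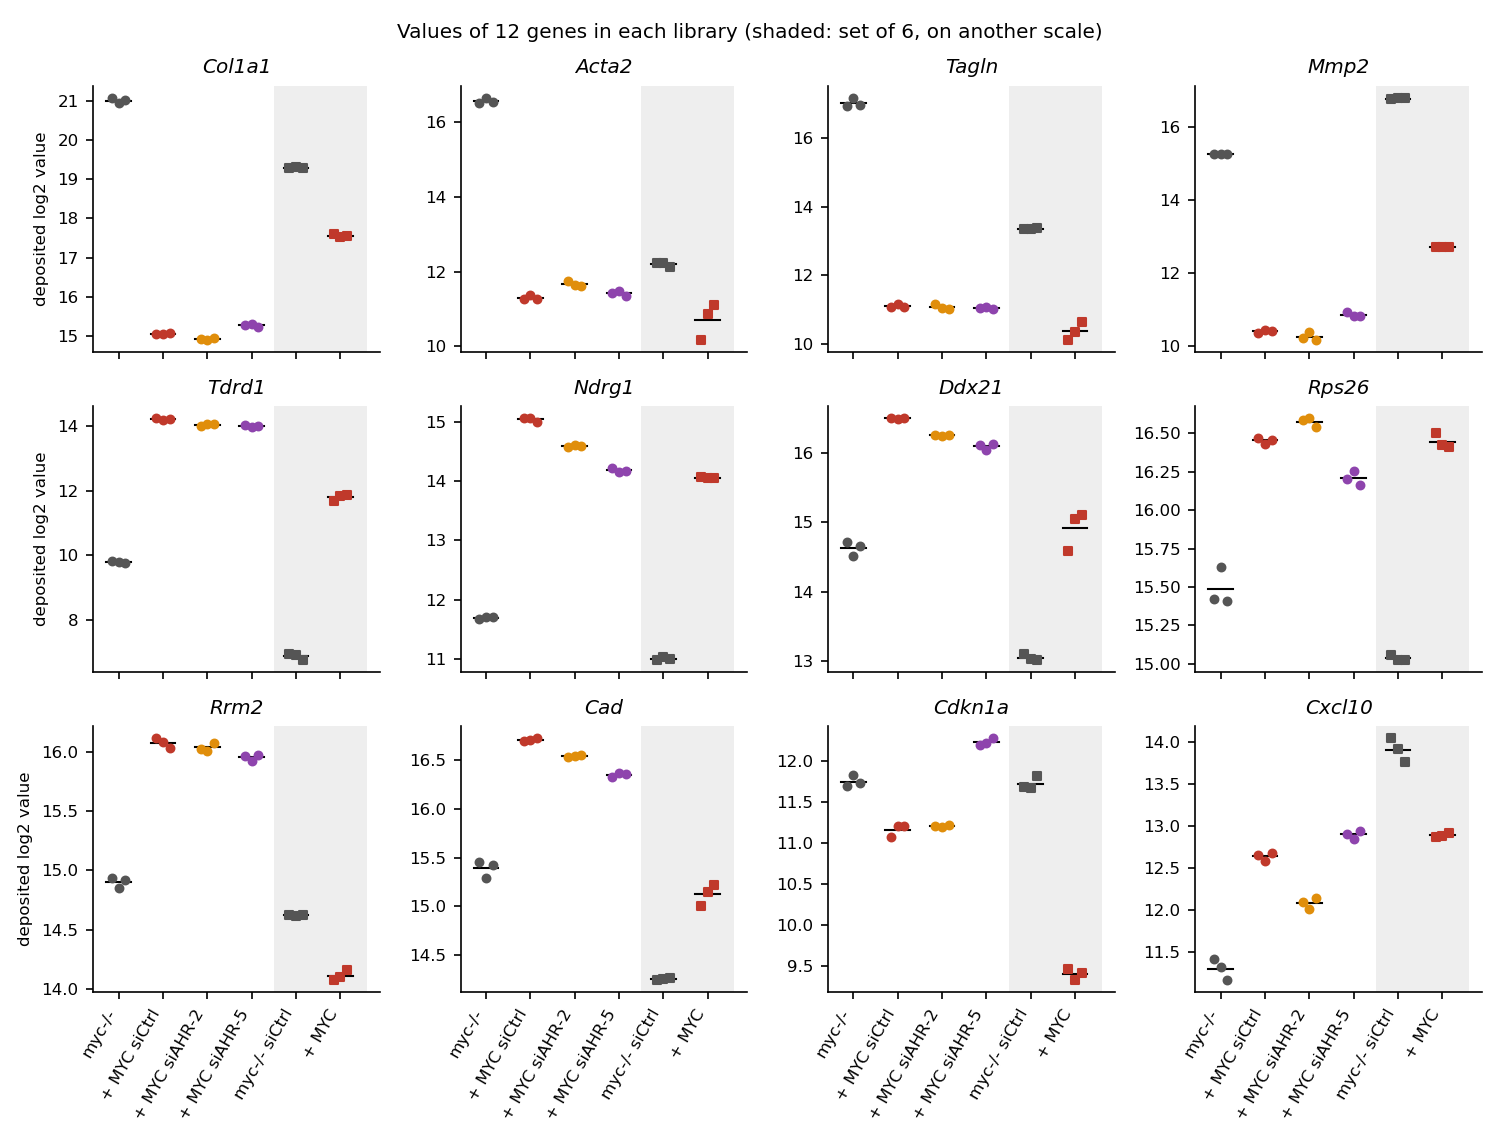
Deposited log2 values (y axis) of 12 genes in each library, with a bar at the mean of the 3 libraries. Circles are the set of 12, which holds the comparison described (grey, myc-/-, red, myc-/- + MYC siCtrl) and the siAHR groups. Squares on the shaded ground are the set of 6, which is on another scale. The myc-/- values of Col1a1 lie between 20.93 and 21.07 and those of myc-/- + MYC siCtrl between 15.05 and 15.08.

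The genes with the largest rises belonged to no growth list. Tdrd1, a tudor protein of the germline pathway that silences transposons, had values of 9.84, 9.81 and 9.77 in myc-/- cells and 14.24, 14.19 and 14.22 in MYC cells (log2FC 4.41 ± 0.0329, SE, 21.3-fold, limma adjusted p = 4.30e-08). Its relative Rnf17 rose from 9.44, 9.45 and 9.44 to 13.77, 13.77 and 13.88 (log2FC 4.36). Germline genes as a list were near the shares of all genes (16.1% higher and 19.4% lower). Of 31 measured 5 rose, Sycp1, of the synaptonemal complex (3.26), and Tdrkh (2.99) among them, while 6 fell, led by Taf7l (−2.11) and Dmrt1 (−2.01). The germ cell factor Sohlh2 was among the 10 largest falls, from 13.56, 13.55 and 13.55 to 8.05, 8.05 and 8.19 (log2FC −5.46). The neuropeptide precursor Nts rose from 9.43, 9.43 and 9.44 to 13.43, 13.54 and 13.55 (log2FC 4.07).

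Some developmental regulators changed by a large amount. The homeobox gene Meox2 rose from 9.45, 9.45 and 9.49 to 13.41, 13.33 and 13.33 (log2FC 3.89) and the AP-2 factor Tfap2b by 3.75, while the limb factor Tbx4 (−3.40), Msx1 (−2.65), Prrx2 (−2.08) and the mesenchymal repressors Snai1 (−1.81) and Snai2 (−1.19) fell. Of 41 mesenchymal factors and filaments 8 rose and 9 fell (19.5% and 22.0%, against 10.8% and 14.7% of all genes). Of 21 HOX genes Hoxd13 (1.003), Hoxd10 (0.76) and Hoxb8 (0.84) rose and Hoxb13 (−1.78) fell, shares of 14.3% and 4.76%. After quantile normalization 6 HOX genes rose. Of 19 imprinted genes 2 rose (10.5%, near the 10.8% of all genes), 5 fell (26.3% against 14.7%) and 12 did not pass. Asb4 rose from 8.48, 8.61 and 8.53 to 12.17, 12.26 and 12.13 (log2FC 3.65), and Ndn fell from 10.96, 11.003 and 10.92 to 6.58, 6.57 and 6.61 (log2FC −4.38).

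Of 7 genes listed as sex-linked, Eif2s3y and Ddx3 rose, although the GRCr8 table places the symbol Ddx3 on chromosome 13. Eif2s3y, which encodes the Y-linked copy of an initiation factor subunit, had 8.89, 8.92 and 8.97 in myc-/- cells and 13.25, 13.12 and 13.26 in MYC cells (log2FC 4.28). Its X-linked copy Eif2s3x had means of 15.13 and 15.03, with a log2FC of −0.10. Ddx3 is listed apart from Ddx3x and Ddx3y and is uncertain, because reads of these near-identical genes can be divided between them. Their log2FC were 4.27, −0.04 and −0.01.

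The share of changed genes also differed between stretches of neighbouring genes. When 10494 protein-coding genes whose mean log2 value was 5 or more were put in the order of the GRCr8 RefSeq table and cut into 212 blocks of 46 to 54 neighbours, a grouping chosen after the values were seen, the median log2FC of a block ranged from −0.58 to 0.75. The highest blocks were the 2 neighbouring ones on chromosome 20 from Gcc2 to Man1a1 (0.71, with 28 of 47 genes higher) and from Msl3l2 to Cd99 (0.75, with 32 of 47 higher). Ddx21, Eif4ebp2 and Ddit4 lie in the former and Gtf3c6, Amd1 and Sesn1 in the latter. The 3 blocks at or below −0.50 were all on chromosome 1, and 66 of their 147 genes fell, Ctsf among them.

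The shares of rises and falls also differed between chromosomes, in part through some of their blocks. On chromosome 2, 208 of 704 genes rose (29.5%) and 66 fell (9.38%), with a median of 0.30 and block medians from 0.21 to 0.42, whereas 13.3% of all placed genes rose and 18.2% fell. On chromosome 14, 14 of 327 genes rose (4.28%) and 96 fell (29.4%), with a median of −0.27. On chromosome 1, 100 of 1335 rose (7.49%) and 354 fell (26.5%), with block medians from −0.24 to 0.11 in its first 12 blocks and from −0.58 to −0.20 in the next 13. In the companion set, which shares no library with this comparison but the same cell lines and genes, the chromosome 20 blocks were at 0.58 and 0.93. No test of these blocks was made.

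**Figure D4:**
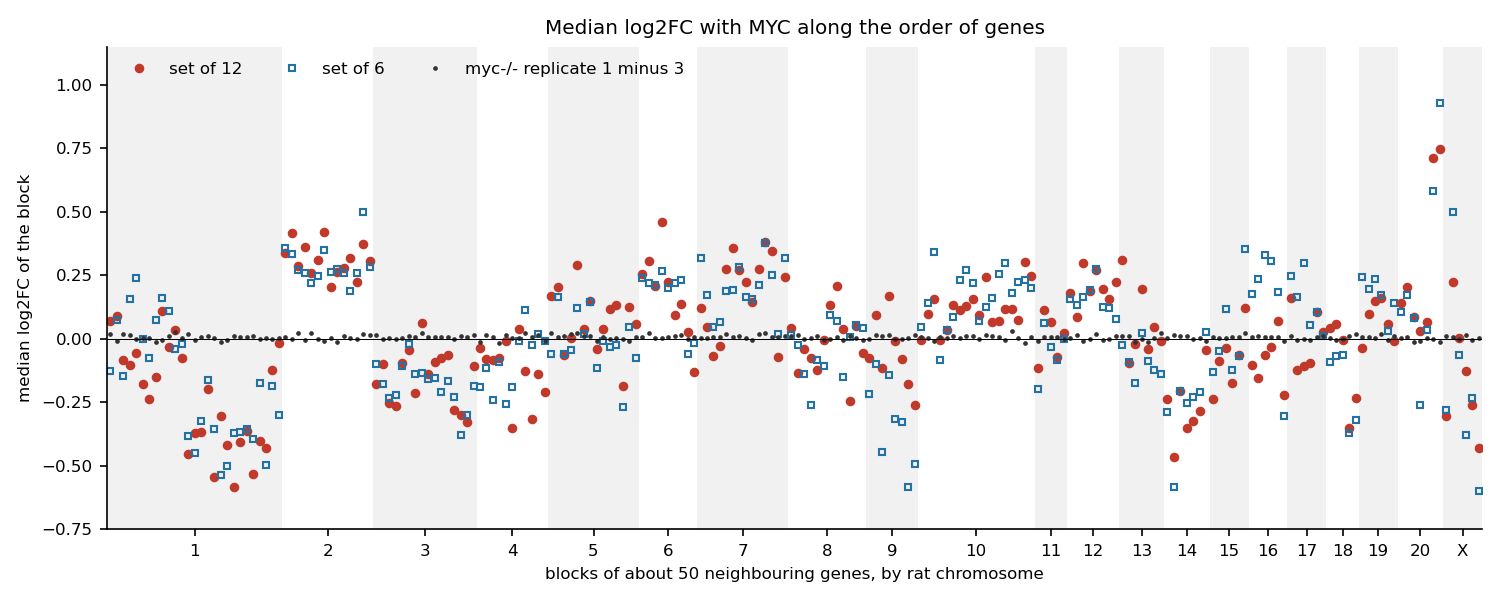
Median log2FC with MYC (y axis) of 212 blocks of about 50 neighbouring genes in their order along the rat chromosomes (x axis, chromosomes on alternating ground), in this set (red) and in the companion set of 6 (blue squares). Black points are the block medians of myc-/- replicate 1 minus replicate 3, between −0.02 and 0.03. The last blocks of chromosome 20 lie at 0.71 and 0.75 in the set of 12, and 3 blocks of chromosome 1 at or below −0.50.

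In the MYC libraries with siAHR-2 or siAHR-5, set beside the same myc-/- libraries, nearly all of the changed genes lay on the same side. Of the 1425 genes higher with MYC, 1420 had all siAHR-2 libraries and 1407 all siAHR-5 libraries above every myc-/- library, and of the 1936 lower genes 1934 and 1920 had them below. Because the genes were called against the same myc-/- libraries, that choice favours such counts and they are only a description. Between the myc-/- and myc-/- + MYC siCtrl libraries 70.5% of all genes did not overlap. The share over all genes was not computed for the siAHR groups. Ahr, the receptor for dioxin-like ligands that these siRNAs target, had 12.01, 11.67 and 11.95 in myc-/- cells and 13.34, 13.26 and 13.22 in myc-/- + MYC siCtrl cells (log2FC 1.40 ± 0.0932, SE, limma adjusted p = 4.42e-05), and its siAHR-2 libraries spanned 11.97 and 12.03 while its siAHR-5 libraries spanned 11.76 and 11.95. Cdkn1a was between 11.19 and 11.22 with siAHR-2, below every myc-/- library, and between 12.20 and 12.28 with siAHR-5, above every myc-/- library. Ndrg1 lay between 14.58 and 14.60 and between 14.16 and 14.22 in these groups.

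The effect of MYC differed in many genes from that in the companion set, where untransfected myc-/- + MYC cells stand against myc-/- siCtrl cells. The difference itself was tested in a fit of 12 libraries in 4 groups, and 2171 genes passed the same cutoffs (16.5%), 896 with a more positive log2FC in the set of 12 (6.79%) and 1275 with a more negative one (9.67%). After median centring these counts were 1148 and 1036, so their balance turned. In the companion set itself 1653 genes were higher with MYC (12.5%) and 1884 lower (14.3%). Of 37 contractile genes 18 had a more negative log2FC in the set of 12 and 0 a more positive one, and 17 fell in the companion set against 25 here. The log2FC was also more negative for 28 matrix glycoprotein genes (4 were more positive) and 13 collagens (1 was more positive). These counts include genes that rose in both sets, such as Csrp2 (1.01 here and 1.85 in the companion set) and Fbn2 (3.52 and 4.72). Without MYC, Fbn2 had a mean of 8.83 here and of 6.25 in the companion set. Rises from low values may therefore be compressed to an unlike degree in the sets, which was not tested. Acta2 fell by 5.27 here, against −1.49 in the companion set, a difference of −3.78 (limma adjusted p = 1.94e-09). For Col1a1 these values were −5.95 and −1.73, a difference of −4.22 (limma adjusted p = 9.56e-16), and the matrix genes Matn4 and Mfap5 differed by −3.98 and −3.55.

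More ribosomal proteins rose in the companion set than here. There, 59 of 82 rose, against 21 here, and 18 had a more negative log2FC here and 1 a more positive one. Among all genes 12.5% rose in the companion set, and 9.67% were more negative here and 6.79% more positive. The nucleolar list had 27 higher in the companion set and 28 here, a median of 0.41 and 0.40, and 2 members that differed in each direction. Some cell cycle genes had a higher log2FC here: 11 of 48 replication genes and 15 of 50 mitotic genes had a more positive log2FC and 0 a more negative one, and in the companion set 4 replication genes rose, 1 mitotic gene rose and 8 mitotic genes fell, shares near or below those of all genes there. Rrm2 illustrates this, with a log2FC of 1.17 here and −0.51 there (limma adjusted p = 2.10e-12 for the difference). Glycolysis genes had 13 of 29 more positive and 2 more negative.

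Stress and interferon genes differed as well. Of 27 p53 targets 17 had a more positive log2FC in the set of 12 and 2 a more negative one, where the shares over all genes were 6.79% and 9.67%. In the companion set 5 p53 targets rose and 14 fell, where 12.5% and 14.3% of all genes did. Of 46 interferon genes 20 were more positive and 2 more negative, against the same 6.79% and 9.67% of all genes. Cxcl10 had 1.34 here and −1.02 there, a difference of 2.36 (limma adjusted p = 4.06e-11), and Tap1 had 0.71 and −0.89. Across all genes 28 were higher here and lower in the companion set and 17 the reverse, against 906 and 1175 that were higher or lower in both. In each set MYC changes together with the transfection label, and the transfected group is the one with MYC here and the one without MYC there, so that MYC, transfection and set cannot be told apart in these differences.

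**Figure D5:**
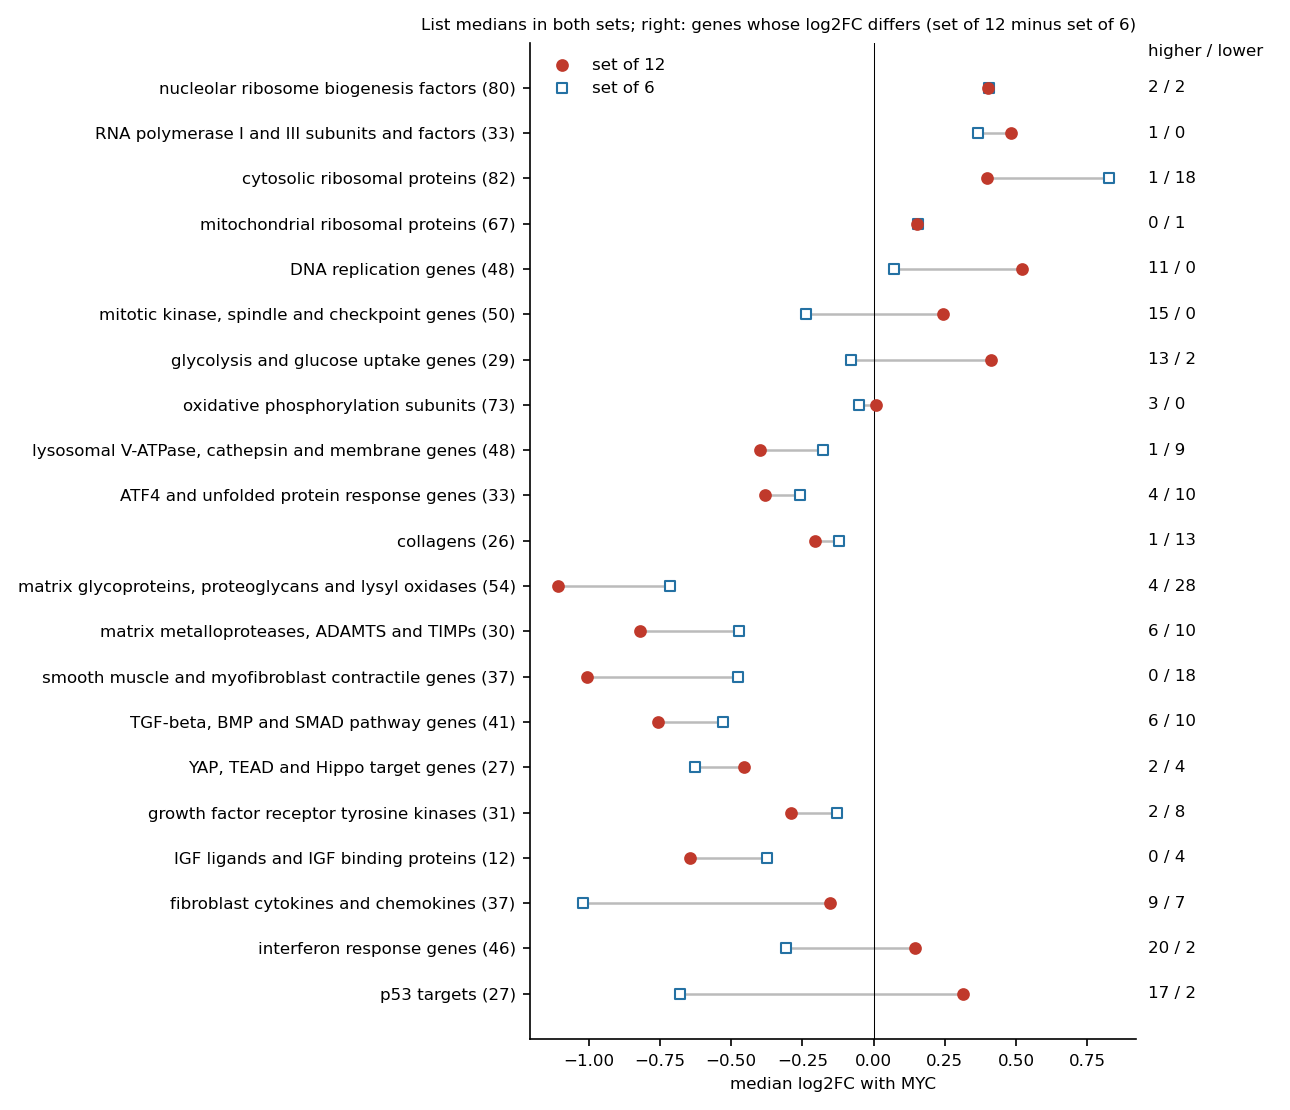
Median log2FC with MYC (x axis) of 21 gene lists in this set of 12 (red circles) and in the companion set of 6 (open squares), with the number of measured genes in brackets. On the right stand the numbers of genes whose log2FC was higher or lower in the set of 12 by the test of the difference. The nucleolar list lies at 0.40 and 0.41, while the p53 targets lie at 0.31 in this set and −0.68 in the companion set.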

How the data were processed

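The authors deposited log2 expression values per gene, labelled as log CPM, made by poly-A RNA-seq, alignment with HISAT2 2.1.0 to rn6 and normalization with DESeq2 (processing notes of the submitters and methods of the study). The exact transformation is not given in the sources used here, and read counts and depth are unknown, so no interval or floor is given. All value columns were mapped to samples by their names (0 were not). The 3 myc-/- and 3 myc-/- + MYC siCtrl libraries were compared with limma 3.58.1 (R 4.3.3, lmFit and eBayes with trend, two-sided), with Benjamini-Hochberg adjustment over 13188 genes. Genes with an absolute log2FC of at least 0.585 and an adjusted p of at most 0.01 were called. A second fit with the myc-/- siCtrl and untransfected myc-/- + MYC libraries tested the difference between the sets. In it each log2FC is taken within its own scale, which does not remove an unlike compression of low values. The fits were tested on simulated data.

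The comparison, the members and the 52 gene lists were chosen with earlier results of these data known, and counts over lists carry no test. Named genes were the 10 largest rises and 10 largest falls among called genes with a mean of at least 1, the 2 largest of each direction in each list, Myc, Max and Ahr, the 5 genes highest and 5 lowest in myc-/- replicate 2, and the 5 largest differences between the sets in each direction. Other list members are named as examples, chosen after their values were seen, and some genes that the rule gives are not reported here. The library kit as named does not mark strand, so reads of overlapping and antisense genes cannot be told apart. Symbols were matched to the GRCr8 RefSeq tables (12169 by symbol and 795 by synonym), which gave spans, gene order and 10502 promoter windows. These were not converted to rn6. Blocks of neighbours were chosen after seeing the data. Alternatives were quantile normalization, median centring, no trend, all 12 libraries in a joint fit, a replicate block, a filter on low values, a pseudocount, a looser cutoff and leaving out each library.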

Additional observations from a re-analysis of the deposited data

Results flagged for a closer look

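The effect of MYC differed between this set and the companion set of 6 libraries in 2171 genes by the test of the difference in limma, and the genes below are among those with the largest differences. The log2FC was more positive here for the calcium buffer Pvalb by 4.29, for the adhesion molecule Nfasc by 4.16, for the costimulatory ligand Cd80 by 4.05 and for the keratin Krt15 by 4.05. These were not large rises in this set, where the log2FC were −0.29 for Pvalb, 1.01 for Nfasc, 0.32 for Cd80 and 0.22 for Krt15. The log2FC was more negative here for Col1a1 (−4.22), Matn4 (−3.98), Acta2 (−3.78), the protease inhibitor Serpinb1a (−3.78) and Mfap5 (−3.55).

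Among the named genes 5 were called in opposite directions in the 2 sets. Nfasc had a log2FC of 1.01 here and −3.15 there, and Serpinb1a had −2.01 and 1.76. Cxcl10 had 1.34 and −1.02, a difference of 2.36, and Tap1 had 0.71 and −0.89, a difference of 1.598. Pmaip1, a death-inducing p53 target, had 0.62 and −0.81, a difference of 1.43. Its rise here was lost without myc-/- replicate 2, where it was 0.55. MYC, transfection and set cannot be told apart in these values.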

How the results depend on the processing

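Leaving out each library in turn gave between 3263 and 3413 genes changed with MYC, between 1373 and 1436 higher and between 1873 and 1977 lower. For the difference between the sets it gave between 2139 and 2231 genes, 873 to 937 positive and 1245 to 1310 negative. At an adjusted p under 0.05 with no fold cutoff, 8538 genes changed, 4170 higher and 4368 lower, and 7235 differed between the sets, 3270 positive and 3965 negative. Quantile normalization gave 1796 higher and 1660 lower, and median centring 1603 and 1791. The balance of rises and falls turned under quantile normalization, and that of the differences between the sets under median centring. No named gene that passed the cutoffs had its log2FC change sign under any alternative run. Of 190 named genes 170 kept their call under every alternative, and 9 had another call without myc-/- replicate 2. Depth is unknown, and 2 of the 2470 genes with a mean below 5 were called.

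With the replicate number as a block, 3304 genes changed (1399 higher and 1905 lower) and 2172 differed between the sets (896 positive and 1276 negative). Libraries of the same number had deviations that correlated at 0.24, −0.03 and −0.26. With 3 libraries a group and myc-/- replicate 2 apart, these values cannot show whether the numbers are pairs. The numbers were not taken as pairs.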

Other observations

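Some of the largest changes fell outside the gene lists and were named for their size. Kif26a, a kinesin family member, had the largest fall, from 14.93, 14.70 and 14.89 in myc-/- cells to 8.58, 8.66 and 8.65 in myc-/- + MYC siCtrl cells (log2FC −6.21). Angptl2, a secreted angiopoietin-like protein, the protease inhibitor Slpi and the nuclear receptor Esrrg fell as well, with log2FC of −5.88, −5.34 and −5.26. On the other side the axonal adhesion molecule Cntn1 rose by 3.61 and Crym, which binds thyroid hormone in the cytosol, by 3.63.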
